A study of Mus musculus with 2 samples.

Results

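Retained-intron transcripts are described here in the mouse hippocampus. They are transcripts that the GENCODE M21 annotation types as retained_intron and that were selected on the expected count, an estimate of reads per transcript: at least 50 in replicate 1 and in replicate 2 of the first of 2 deposited transcript quantifications. The rule selected 4084 of the 21848 retained-intron transcripts listed (18.7%), in 2797 of the 9421 genes that have one. Counts chose these transcripts, so their number and level are a description. Of the others, 1233 reached 50 counts in 1 library only and 2897 had a count of 0 in both. Just inside the minimum lay Tulp3-206, with 54 and 50 counts in replicates 1 and 2, and Spata7-209, with 63 and 50. Just outside lay Aars2-202, with 52.99 and 49.99 counts, and Dhx30-223, with 68.77 and 49.99.

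An intron is normally cut out of the primary transcript by the spliceosome, which recognises a donor site at its 5′ end, usually beginning with GT, and an acceptor site at its 3′ end, usually ending in AG. A transcript that keeps an intron is often held in the nucleus or, if exported, can be degraded by nonsense-mediated decay when the intron brings in an early stop codon. In the nervous system, introns kept in stored nuclear transcripts are known to be spliced later in some genes, and genes for splicing factors are known for regulating their own level through such introns. The annotation type does not require a full-length RNA. It also covers short models that begin or end inside an intron.

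Total RNA was sequenced from 2 libraries, biological replicates 1 and 2, which formed 1 group. The mice were B6CASTF1/J males, the F1 cross of C57BL/6J and CAST/EiJ, aged 2 months, with no treatment or induced mutation given in the labels. Each library was made from 300 ng of RNA with ERCC spike-ins of the mix for stranded libraries depleted of ribosomal RNA, and the tissue label was a layer of the hippocampus. That the libraries came from separate animals rests on the replicate numbers, and no second group existed, so no test and no p-value was possible. Total RNA holds nuclear as well as cytoplasmic RNA, and these were not separated.

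To show what such a transcript holds, sequences were taken from the transcripts' own annotated sequence on mm10. The most abundant ones did not hold a whole intron: none of the 10 with the highest TPM did. Each ran past 1 exon–intron border, and the lines below give that border for 5 of them, with up to 20 intron bases in capitals and 10 exon bases in lower case, 5′ to 3′ on the gene's strand. Uchl1-202 and Itm2b-202 started in front of an acceptor by 52 and 78 intron bases, at chr5:66676892-66676943 (plus strand) and chr14:73368428-73368505 (minus strand). Prkcb-208 began 297 bases inside an intron of 32914 bases, at chr7:122633448-122633744 (plus strand). Rps26-202 began 184 bases inside an intron of 235, at chr10:128626241-128626424 (minus strand). Ywhae-204 ran 93 bases past a donor, at chr11:75757024-75757116 (plus strand).
Uchl1-202: GCCCTGTCTTTTTCTTGCAGgtgttggcca
Itm2b-202: CTGTTGTGTTTCCATTCCAGgacccgggtg
Prkcb-208: GTTCGCTTTCCATTTGGCAGagagacaagc
Rps26-202: GCGTCTCTTTCCATTCTCAGaccaaaaaaa
Ywhae-204: gtgcctgcagGTAAGTAGTGGACAAAATTT

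Other transcripts held an intron from donor to acceptor. For 5 of these the first 20 and last 20 intron bases are in capitals, with 10 exon bases on each outer side in lower case. They were chosen, after values were seen, among those of highest TPM in which at least 30% of the 31-base words occur in no other annotated transcript. The introns are the 816-base one of Stk25 (chr1:93626209-93627024, minus strand), the 440-base one of Gria2 (chr3:80707259-80707698, minus strand), the 2280-base one of Arglu1 (chr8:8681468-8683747, minus strand), the 2231-base one of Abcc5 (chr16:20402335-20404565, minus strand) and the 1059-base one of Srsf2 (chr11:116850962-116852020, minus strand). The Srsf2 intron lies in an untranslated part, and the other 4 lie between coding exons.
Stk25-204 donor: gatatcaaagGTCCTGCGGGGTGGGCTTGG
Stk25-204 acceptor: ACCTATCCTGTATTGAGCAGctgccaacgt
Gria2-204 donor: tgtatatgggGTAAGTTTTTAATGTTACAG
Gria2-204 acceptor: TTTTCTTTCTTCCCTTACAGaaagctgata
Arglu1-204 donor: agccagagagGTAACGCTCGGTCGTTTGGA
Arglu1-204 acceptor: CAACATGTCCTCCCCTTTAGgaggaagaga
Abcc5-208 donor: cagtggaccaGTAAGTTCTGACTATCCTTT
Abcc5-208 acceptor: TGACAGAAGCTGTTCTTTAGaattttcagg
Srsf2-203 donor: taagaaaatgGTAATGTCTGCGGGAATCTG
Srsf2-203 acceptor: CTCTTTCTTTTCAAACCTAGatgaatcggc

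The whole-intron transcript of highest TPM, Rps20-201, kept a 192-base intron between the coding exons of a small ribosomal subunit protein gene (chr4:3835292-3835483, minus strand). It is short enough to be shown whole, in capitals, with up to 10 exon bases in lower case on each side.
Rps20-201: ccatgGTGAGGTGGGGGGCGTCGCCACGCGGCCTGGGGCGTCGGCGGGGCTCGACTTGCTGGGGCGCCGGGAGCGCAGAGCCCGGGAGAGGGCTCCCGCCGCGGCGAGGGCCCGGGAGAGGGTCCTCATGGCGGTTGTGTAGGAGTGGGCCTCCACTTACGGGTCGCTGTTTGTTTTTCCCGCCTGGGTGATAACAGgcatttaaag

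Expected counts summed to 31422826 and 31303011 in replicates 1 and 2. Genes that mark hippocampal cells were present in both, among them Prox1 of dentate granule cells at 41.6 and 39.4 TPM, Wfs1 of CA1 pyramidal cells at 54.0 and 62.5 TPM, and Grik4 of CA3 pyramidal cells at 25.8 and 23.8 TPM. Of 3 choroid plexus genes, Folr1 was at 0.0800 and 0.230 TPM, Kl at 4.04 and 3.96 TPM, and Ttr at 10.6 and 23.1 TPM. Since this is bulk tissue, a transcript made by few cells and one made at a low level by many cannot be told apart.

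Retained-intron transcripts were a small part of the library and a minor part of most of their genes. All 21848 together took 3.43% of the expected counts in replicate 1 and 3.18% in replicate 2, and the 4084 selected ones 2.58% and 2.42%. The second quantification, which came directly from the reads, gave the selected ones 2.63% and 2.46% of its counts. In TPM the quantifications lay further apart: the selected ones summed to 22199 and 20883 TPM in the first and to 35423 and 33802 TPM in the second, and all 21848 to 36229 and 33439 TPM against 71559 and 68859 TPM. A selected transcript had a median TPM (a level per length, scaled to the same sum in each library) of 2.52, with quartiles of 1.36 and 5.34. The range ran from 0.305 to 261 TPM, and 428 transcripts reached 10 TPM and 40 reached 50 TPM. The isoform percent, or IsoPct, is the percent of its gene's TPM that a transcript takes. Its median was 7.68%, with quartiles of 3.77% and 15.1%.

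Under the same count minimum, the other annotated types stood higher on both scales. Median IsoPct was 42.3% for 19468 protein-coding transcripts, 15.6% for 1156 nonsense-mediated decay transcripts and 15.8% for 1329 processed transcripts. Median TPM was 6.74, 3.51 and 5.62 in the same order. Over all 27278 transcripts that passed, the medians were 31.4% and 5.47 TPM. The median retained-intron transcript was 2600 bases long and the median protein-coding one 3040.

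**Figure D1:**
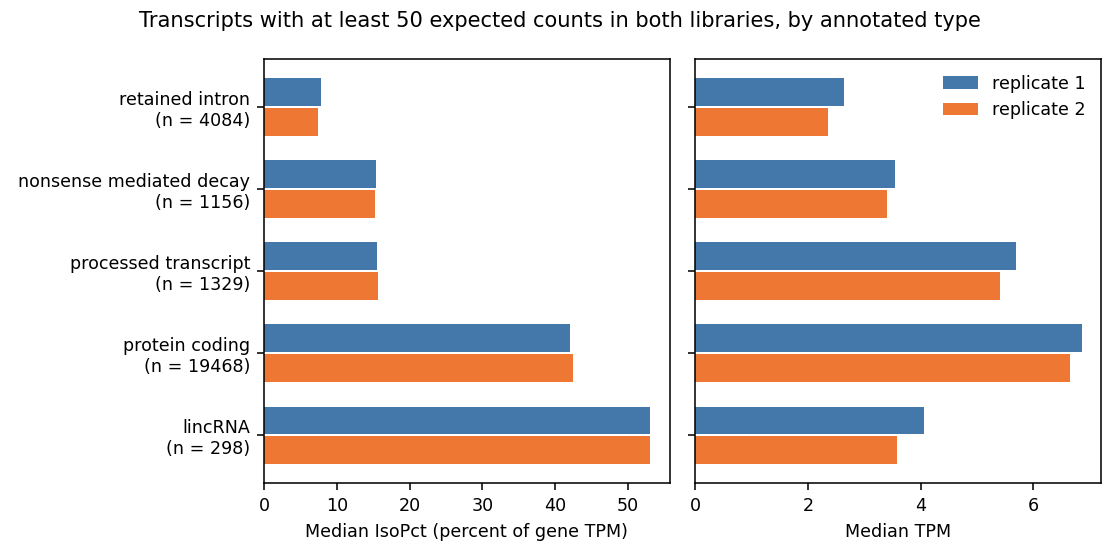
Median IsoPct (left, percent of the gene's TPM) and median TPM (right) of transcripts that reached 50 expected counts in each library, by annotated type, with 1 bar per library and the number of transcripts in brackets. Retained-intron transcripts have the lowest bars of the 5 types in both panels, at 7.87% and 7.39% and at 2.63 and 2.35 TPM.

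Few retained-intron transcripts led their gene. IsoPct reached 1% in 3971 of them, 10% in 1635 and 50% in 90. In the second quantification the share of the gene's TPM was also at least 10% for 1225 of those 1635, and at least 50% for 46 of those 90. For 17 of the 90 it was under 10%. A retained-intron transcript was the most abundant transcript of its gene in 256 cases by the first quantification and in 219 by the second, with 130 cases in both. Summed over a gene's selected transcripts, the median IsoPct was 12.1%, and the sum reached 50% in 142 genes, of which 77 reached it in both quantifications.

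Most genes contributed 1 transcript (1944 genes), 853 contributed at least 2 and 38 at least 5. Dock4, Sptan1 and Snrnp70 had 7 each. Snrnp70 encodes a protein of the U1 particle that recognises donor sites. Its leading retained-intron transcript, Snrnp70-216, was at 41.1 and 35.9 TPM, or 22.1% and 23.7% of the gene. It keeps an intron of 2306 bases. The next, Snrnp70-209, was at 25.9 and 18.4 TPM, and the lowest of the 7, Snrnp70-208, at 1.94 and 2.02 TPM. Only 1.64% of the words of Snrnp70-216 occur in no other annotated transcript. Of its bases, 57.5% lie outside the exons of its gene's other types of transcript. In Sptan1, which encodes the alpha spectrin of the membrane skeleton, Sptan1-207 was at 39.3 TPM in replicate 1 and 19.2 in replicate 2, and the second quantification put it at 0 in both. In Dock4, an activator of Rac GTPases, Dock4-211 had 86.3% unique words and was at 6.42 and 6.28 TPM, with 6.22% and 6.82% of the gene in the first quantification and 6.70% and 6.77% in the second.

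The annotation type covers different structures. Of the 4084 transcripts, 1899 (46.5%) held at least 1 whole intron of another, non-retained-intron transcript of the same gene inside an exon. Among these, 1264 held 1 such intron, 409 held 2, 121 held 3 and 105 held 4 or more. Msto1-205, at 0.87 and 0.69 TPM, held 11. The other 2185 (53.5%) held no whole intron. Of these, 671 began inside an intron, 1203 ended inside one, 275 did both and 36 did neither. Transcripts with a whole intron were longer (median 3074 bases against 2091), had a lower median TPM (2.12 against 3.06) and a close median IsoPct (7.54% against 7.97%). The highest levels in the first quantification lay with those that only began inside an intron. Their median was 5.71 TPM and 12.8% at a median length of 930 bases. In the second quantification their median share was 8.79%. It was 9.37% there for 882 whole-intron transcripts with neither end in an intron, and 14.6% for the 36 that did neither.

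The whole introns kept in these transcripts were short. The 3786 distinct introns had a median length of 413 bases (quartiles 172 and 968), beside 975 bases (quartiles 295 and 2596) for 22629 other introns of coding transcripts in the same genes. Within 1505 genes with both kinds, the kept introns had the shorter median length in 1043 (69.3%). Kept introns came from transcripts of any type but retained intron, and the other introns from protein-coding ones only, so the sets differ. Only introns in annotated models are counted, and the part of annotation and of the count minimum in this length was not tested. Introns held only by retained-intron transcripts outside the selection were shorter still, at a median of 240 bases over 6440. Splice sites were of the usual kind: 97.4% began with GT and ended with AG, 63 were GC-AG and 4 were AT-AC. Of the kept introns, 2881 lay between coding exons and 267 in untranslated parts of protein-coding transcripts. The other 638 were introns of no transcript of the protein-coding type. Their median GC content was 50.5%, and 51.2% in the introns outside the selection.

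Among the transcripts of highest TPM, the second quantification gave values from 0 to above those of the first. Uchl1-202, from the gene of an abundant neuronal deubiquitinating enzyme, had 4953 and 5528 expected counts, 250 and 272 TPM, and 68.5% and 72.0% of the gene's TPM. The second quantification gave it 0 TPM in both libraries. The libraries were thus alike under each quantification, while the quantifications differed. Only 5.47% of the 31-base words of Uchl1-202 occur in no other annotated transcript, and 52 of its 980 bases are the intron bases shown above. Itm2b-202, from the gene of a membrane protein processed in neurons, was at 188 and 157 TPM (44.5% and 38.5% of its gene) in the first and at 283 and 245 TPM (31% and 27.6%) in the second. Prkcb-208, from the protein kinase C beta gene, was at 135 and 122 TPM, with 42.0% and 39.5% of the gene against 31.8% and 29.6% in the second. It had more unique sequence than either (31.6% of words), and the quantifications were closer.

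Ywhae-204 and Ppia-203 came from genes of higher level still, and took less of them. Ywhae-204, of the 14-3-3 epsilon protein, was at 116 and 128 TPM (23.1% and 26.1% of its gene) in the first and at 2.27 and 2.79 TPM in the second. Ppia-203, of the prolyl isomerase cyclophilin A, was at 98.8 and 126 TPM (14.5% and 18.7%) in the first and at 1.40 and 0 TPM in the second. Of its words, 54.5% also occur in transcripts of other genes. Both were thus far lower in the second quantification.

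Of the transcripts named for TPM or IsoPct, some came from ribosomal protein genes. Rps16-203 was at 128 and 118 TPM, with 63.5% and 58.5% of the gene, and the second quantification raised it to 80.8% and 78.1%. Its partner Rps16-202, which keeps an 89-base intron, had 34.2% and 39.0% of the gene in the first and 0.845% and 0.867% in the second. Rps26-202 took 94.9% and 96.8% of its gene in the first and 46.5% and 45.4% in the second. Rps20-201, the intron-bearing transcript shown above, was at 99 and 92.9 TPM, with 84.8% and 79.5% against 51.2% and 41.6%. Rps23-202 took 78.5% and 76.9% in the first and 0 in the second. Between 49.6% and 74.8% of the words of Rps26-202, Rps20-201, Rps23-202, Rps16-202 and Rps16-203 also occur in other genes. The part of these shared words in the differences between the quantifications was not tested. The posterior SD that the first quantification gives for its own count was 2.16% and 1.88% of the count for Rps26-202 and 3.81% and 4.40% for Rps20-201, beside a median of 8.23% and 8.69% over all 4084.

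The rest of the 10 transcripts of highest IsoPct in genes of at least 10 TPM took from 71.5% to 91.8% of their gene in the first quantification. Prelid1-202, from a gene for a lipid transfer protein of the mitochondrion, keeps an 82-base intron and took 91.7% of the gene in both libraries, against 77.3% and 77.7% in the second quantification. Mrps26-201, of the mitochondrial ribosome, keeps an 80-base intron and took 91.2% and 91.8%, against 91.6% and 92.0%. Mrpl57-202, of the same ribosome, took 85.2% and 86.6%, against 85.9% and 87.7%. Atp5j-208, of the ATP synthase, took 80.0% and 76.5% in the first and 0 in the second. Carmil2-201, of a regulator of actin capping, keeps a 163-base intron and took 76.7% and 75.3%, against 80.8% and 80.5%. Ptges2-203, of a prostaglandin E synthase, took 71.5% and 78.1%, against 76.5% and 81.7%. The remaining one of the 10 highest by IsoPct, Gm43305-201, took 84.2% and 80.3% at 16.5 and 15.2 TPM and was at 165 and 154 TPM in the second, where it was all of its gene.

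Some retained-intron transcripts rest mostly on sequence of their own. Among those with at least 70% unique words, a level of uniqueness chosen after values were seen, the highest were Ndrg4-208 and Tmed10-202. Ndrg4-208 was at 31 and 30 TPM, but only 5.36% and 5.14% of its gene. Tmed10-202, from the gene of a cargo receptor of the early secretory pathway, was at 28.6 and 27.2 TPM, with 42.2% and 42.7% of the gene in the first and 35.0% and 35.2% in the second. Tmem178b-202 has 96.0% unique words. It was at 23.8 and 21.9 TPM, with 34.6% and 35.8% of the gene against 38.8% and 40.6%. Shc3-202, from the gene of a neuronal signalling adaptor, has 97.3% unique words and was at 15.4 and 15 TPM, with 31.6% and 33.2% against 32.0% and 32.6%. All 4 shares of Shc3-202 thus lay between 31.6% and 33.2%. Not every transcript with this much unique sequence was so close. Gm43305-201 has 75.8% unique words and was at 16.5 and 15.2 TPM in the first quantification. In the second it was at 165 and 154 TPM.

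For 5 transcripts that keep whole introns, the share of the gene ran from under 10% to over 20%. Abcc5-208, from the gene of an organic anion transporter, keeps 2 introns and has 77.2% unique words. It was at 21.9 and 19.8 TPM, with 24.4% and 24.5% of the gene against 30% and 32.4% in the second. Stk25-204, from a Ste20-type kinase gene, was at 45.4 and 40.8 TPM, with 26.6% and 24.0% against 16.0% and 15.8%. Gria2-204, from the gene of the AMPA receptor subunit that limits calcium entry, keeps the 440-base intron shown above. It was at 26.6 and 23.0 TPM, with 9.19% and 8.74% against 9.19% and 8.63%. A further transcript of the gene, Gria2-206, keeps a 541-base intron and was at 35.4 and 32.9 TPM, or 12.2% and 12.5%. Cpne6-206, of a calcium-dependent membrane-binding copine, keeps 4 introns and was at 28.7 and 23.9 TPM, or 9.65% and 8.55%. All 5 were lower in TPM in replicate 2, as most retained-intron transcripts were.

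The retained-intron transcripts of 18 gene lists were described by IsoPct, beside the median of 7.68% over all 4084. Median shares were higher in the lists of SR proteins, their kinases and core spliceosome genes. They were lower for hnRNP proteins and neuronal splicing regulators. For SR proteins and related splicing factors, 53 of 102 listed retained-intron transcripts were selected (52.0%, beside 18.7% over all), in 24 genes. Their median IsoPct was 11.8%. A percent selected above 18.7% was not particular to splicing genes. Every list but that of aminoacyl-tRNA synthetases exceeded it, and presynaptic release genes stood highest at 55.8%. At least 10% was reached by 30 of the 53, beside 1635 of all 4084. Of these 30, 24 reached it in both quantifications, beside 1225 of the 1635. Rsrp1-204, from an arginine- and serine-rich protein gene, keeps 2 introns and took 65.9% and 60.3% of its gene at 63.6 and 61.5 TPM, against 50.6% and 48.7% in the second. Arglu1-204, of a splicing coactivator, took 56.6% and 56.4% against 42.4% and 45.7%. Srsf2-203, of a core SR protein, took 31% and 27.5% against 28.3% and 23.4%, and Srsf5-212 took 17.7% and 18.2% against 15.8% and 16.8%. Srrm2-209, of a large spliceosome-associated protein, was at 44.5 and 35.5 TPM with 17.8% and 16.0%.

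Kinases that phosphorylate SR proteins, with the cyclins L, had 21 selected of 51 transcripts and a median of 11.2%, and 13.6% in the second quantification. Ccnl2-205, of cyclin L2, keeps a 1664-base intron and took 46.1% and 41.1%, against 46.5% and 41.6%. All of its words also occur in other annotated transcripts, though 39.4% of its bases lie outside the exons of its gene's other types of transcript. Clk4-207 took 23.4% and 22.6%, against 22.1% and 21.9%, also with no unique word and with 41.1% of its bases outside such exons. For core spliceosome proteins and RNA helicases, 42 of 120 were selected with a median of 8.40%. Ddx39b-204, of a helicase that couples splicing to export, took 32.5% and 29.6%, against 29.9% and 27.0%. Nuclear export and RNA surveillance genes had 14 of 59 and a median of 12.9%, with Rbm8a-204, of the exon junction complex, at 36.6% and 35.0% against 51.6% and 62%. Thoc1-202, of the complex that prepares mRNA for export, took 26.3% and 27.0% against 13.1% and 10.7% in the second. A list of 24 genes with a listed transcript and with introns reported elsewhere as regulated had 30 of 73 selected and a median of 11%. Several of its genes are also on the splicing lists.

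Not all RNA-binding protein genes were high. The hnRNP and FET proteins had 43 of 111 selected and a median of 6.46%. For their leading transcripts the quantifications differed. Hnrnpk-215 took 11.8% and 10.1% in the first and 0.00107% and 3.24% in the second, and Matr3-205 took 12.1% and 10.3% against 1.60% and 1.21%. In both, few words are unique (6.30% and 0.52%). Neuronal splicing regulators had 15 of 32 selected and a median of 2.51%. Of these only Celf5-207 reached 10%, with 20.3% and 20%, and the second quantification gave it 6.90e-07% and 3.48%. Mbnl2-206 has 74.3% unique words and took 6.98% and 6.33%, against 6.63% and 6.62%.

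Synaptic genes, too, had a percent selected above that over all, at lower shares. Presynaptic release genes had 24 of 43 selected (55.8%) and a median of 2.23%. Postsynaptic density genes had 25 of 60 (41.7%) and 1.93%. Dnm1-211, of the dynamin that pinches off vesicles, was at 43.0 and 36.9 TPM but 7.64% and 6.78% of its gene, against 12.6% and 12.1%. Syt7-206, of a calcium sensor for release, took 16.1% and 12.5%, against 15.7% and 10.2%. Arhgap32-202, of a GTPase regulator, was the highest postsynaptic one at 32.8% and 32.4%, against 15.8% and 13.7%. Shank1-206, of a scaffold, took 9.80% and 8.31%, against 4.87% and 3.60%. The lists also differed in the level of their genes, which moves with what could be selected. The median gene TPM of the selected transcripts was 49.5 for SR proteins, 153 for presynaptic, 101 for postsynaptic and 31.3 over all. At a high gene level a transcript of low share reaches 50 counts, and the part of this in the difference between lists was not tested.

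Receptor and channel genes lay between. Glutamate and GABA receptor subunits had 17 of 35 selected and a median of 7.51%, and voltage-gated channels 32 of 65 and 4.85%. Cacna1e-206, of the R-type calcium channel, keeps a 1336-base intron and took 14.3% and 15.6%, against 10% and 10.4%. Kcnab2-213, of a potassium channel beta subunit, was at 17.9 and 34.2 TPM, one of the wider gaps between the libraries. Its share was 5.60% and 10.7%, against 0.765% and 1.22% in the second. Of immediate early genes, 4 of 10 transcripts were selected, led by Egr3-202, of a zinc finger transcription factor, at 11.1 and 13.4 TPM, or 27.5% and 37.9% against 20% and 20.9%. Fosl2-203, of an AP-1 factor, took 10.2% and 9% against 25.3% and 25.5%.

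Astrocyte genes had 9 of 27 selected (33.3%, beside 18.7% over all) and a median of 8.59%. Slc1a3-204, of a glutamate transporter, took 9.11% and 15.5%, against 20.9% and 19.7%. Oligodendrocyte and myelin genes had 6 of 17 (35.3%) and a median of 16.3%, but 6.03% in the second. Trf-209, of the iron carrier transferrin, took 36.0% and 38.6% in the first and 0.0103% and 0.0444% in the second, with 84.6% of its words in other genes.

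Housekeeping lists were mixed. Cytosolic ribosomal protein genes had 36 of 129 selected, with a median of 3.67% and a range from 0.275% to 82.1%. At least 10% was reached by 14 of the 36 in the first quantification, beside 1635 of all 4084. Of these 14, 5 reached it in both, beside 1225 of the 1635. In the second, 5 of the 36 were at 0, beside 102 of all 4084. Glycolysis genes had 18 of 48 and a median of 2.43%, with Eno2-210, of the neuronal enolase, at 11.4% and 12.8% against 18.1% and 20.4%, and Gpi1-211, of glucose phosphate isomerase, at 14.1% and 10.4% against 10.3% and 8.55%. Microtubule and cytoskeleton genes had 14 of 49 and a median of 2.62%, and none reached 10%. Actb-205, of beta-actin, keeps 2 introns and was at 14.0 and 15.5 TPM, or 1.06% and 1.13% of a gene at 1351 TPM. Klc1-207, of a kinesin light chain, took 3.29% and 4.61%, against 0.134% and 0.132% in the second. Aminoacyl-tRNA synthetases had the lowest percent selected, 9 of 75 (12%), with a median of 8.00%. Mars-205 took 18.4% and 20.6%, against 11.5% and 14.3%, and Yars-202 took 14.1% and 11%, against 8.41% and 4.54%.

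**Figure D2:**
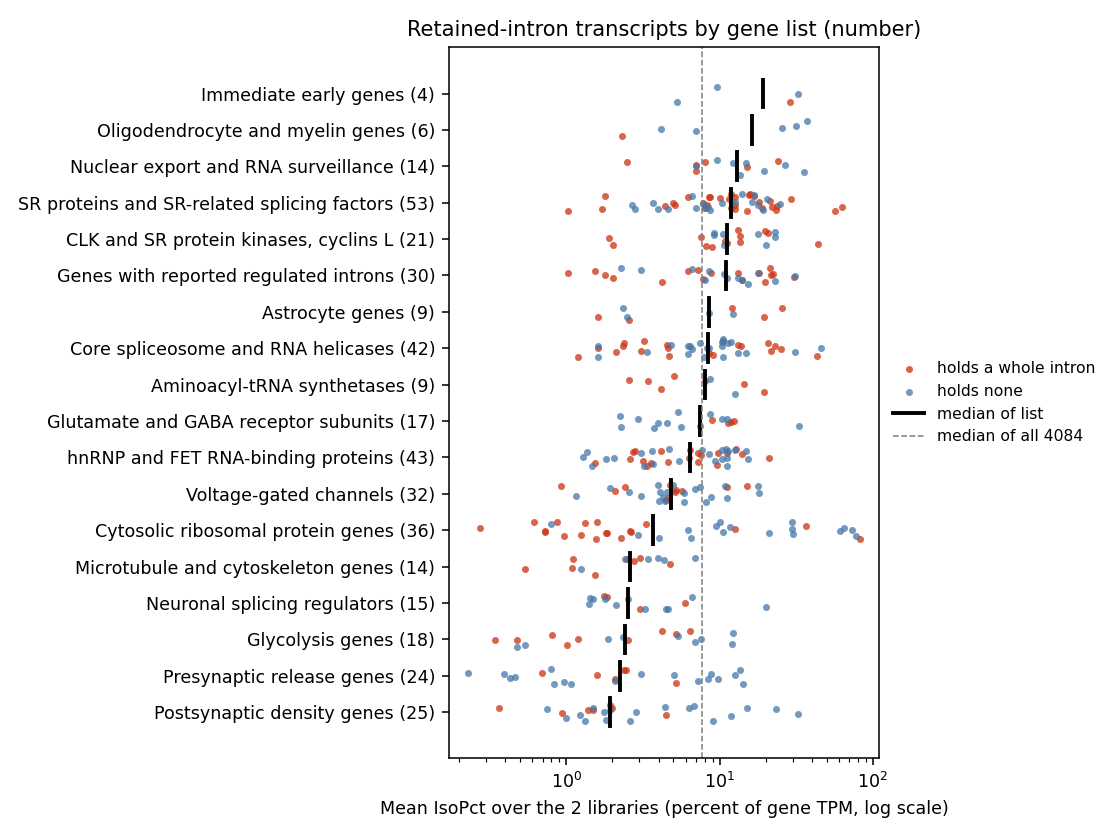
Mean IsoPct over the 2 libraries (log scale) of each selected retained-intron transcript in 18 gene lists, ordered by list median (black bar), with the number of transcripts in brackets and colour for those that hold a whole intron. The medians run from 1.93% for postsynaptic genes to 12.9% and above for the export list and the lists of 6 and 4 transcripts, and ribosomal protein genes span the widest range, from 0.275% to 82.1%.

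The values of the libraries lay close together in the transcripts selected on them. The rule asks for 50 counts in both libraries and so leaves out transcripts low in 1 of them. With a minimum of 20 counts r was 0.960, with 297 of 8028 transcripts at least 2-fold apart. With 100 it was 0.982, with 11 of 1992. The same counts over all transcripts were not made at these minimums. Across the 4084 transcripts, Pearson's r of log2(TPM + 1) was 0.975 and Spearman's rho 0.965, beside 0.983 and 0.973 over all 27278 transcripts that passed. These points share their libraries and often their genes, so the values are descriptions. The SD of the log2 TPM ratio was 0.34, beside 0.38 over all transcripts that passed, 0.39 for protein-coding, 0.49 for nonsense-mediated decay, 0.42 for processed and 0.25 for lincRNA transcripts. IsoPct differed between the libraries by a median of 0.990 percentage points. TPM was at least 2-fold higher in replicate 2 for 14 transcripts, or 0.343%, where 1.27% of all that passed were. It was at least 2-fold lower for 44, or 1.08%, where 1.61% of all were. With 1 library on each side, no such gap has a replicate check.

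**Figure D3:**
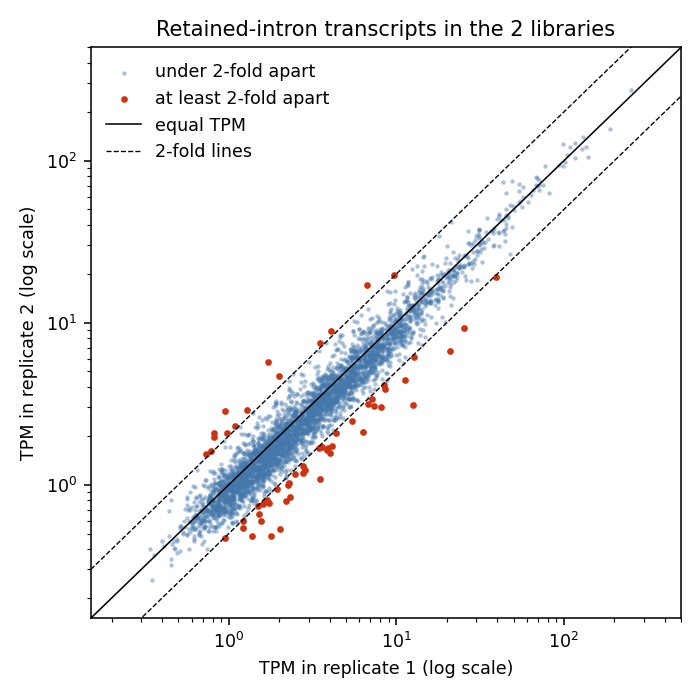
TPM of 4084 retained-intron transcripts in replicate 1 (x, log scale) and replicate 2 (y, log scale), with the line of equal TPM and dashed 2-fold lines. Of these, 58 lie on or beyond the 2-fold lines, 14 above and 44 below.

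The transcripts with the widest gaps between the libraries had few unique words. Idh3a-203, of a mitochondrial isocitrate dehydrogenase subunit, had 56.7 and 195 counts, Synj1-201, of the phosphatase synaptojanin, 56.2 and 175, and Nrcam-208, of a neuronal adhesion protein, 86.4 and 229. Wdr90-210 had 108 and 281, and Ppfia3-205, of a presynaptic liprin, 88.5 and 219. All 5 were higher in replicate 2, and their unique words ran from 0 to 6.15%. In the other direction, Bcan-206, of the brain matrix proteoglycan brevican, had 385 and 98.6 counts, Dlg3-206, of a synaptic scaffold, 223 and 60.6, and Fam13c-205 189 and 52.8. Ints1-203, of the Integrator complex, had 208 and 67.2, and Rps13-206 154 and 50.8. Unique words of these 5 ran from 0 to 11.1%. In the second quantification Idh3a-203 and Rps13-206 were at 0 in both libraries, and Nrcam-208 was at 81.4 and 79.2 TPM, so the gap of Nrcam-208 was seen in the first only. Wdr90-210 was at 1.96 and 2.82 TPM there, with a smaller gap in the same direction. Ints1-203 at 2.07 and 0.367 TPM, Dlg3-206 at 4.74 and 2.37 TPM and Synj1-201 at 0 and 2.12 TPM were 2-fold or more apart in the same direction there. Ppfia3-205 was at 22.4 and 23.7 TPM, and Bcan-206 and Fam13c-205 were at or near 0 in both libraries.

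Small shifts went mostly one way. TPM was lower in replicate 2 for 2889 of 4084 retained-intron transcripts (70.7%), beside 60.2% of all transcripts that passed. The median log2 ratio of replicate 2 over replicate 1 was -0.16, beside -0.06 for all, -0.04 for protein-coding and -0.14 for 298 lincRNA transcripts. With counts scaled by TMM factors, which set a common level across the libraries, it was -0.09 beside 0.01 for all. In the second quantification it was -0.15 beside -0.04, with 2700 of 3903 lower (69.2%) beside 57.5%. IsoPct, which does not depend on library scale, was lower in replicate 2 for 2506 of the 4083 transcripts whose gene lists more than 1 (61.4%), beside 49.6% of all. In the bins by unique sequence described below, the median was -0.09 at under 10% unique words and -0.18 at 70% or more. Transcripts that both begin and end in an intron had -0.22 with a whole intron (170 of 210 lower) and -0.22 without one (218 of 275 lower). The difference is between 1 library and 1 other, and its source was not tested.

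The quantifications were less alike than the libraries were, in transcripts selected on both libraries of the first quantification only. Across the 4084 transcripts, log2(mean TPM + 1) correlated with r = 0.644 and rho = 0.722, beside 0.774 and 0.793 for protein-coding transcripts and 0.714 and 0.745 for all. Both quantifications used the same reads, so this is no independent repeat. The second gave 0 TPM in both libraries to 102 transcripts (2.50%), beside 3.22% of all. At least 50 counts in both libraries in the second were reached by 3370 (82.5%). Across these 3370, selected on both quantifications, r between the quantifications was 0.910. Of 4416 retained-intron transcripts with at least 50 counts in both libraries in the second, 76.3% reached this in the first. The share of the gene was at least 2-fold lower in the second in both libraries for 430 transcripts (10.5%), beside 13.5% of all. It was at least 2-fold higher for 109 (2.67%), beside 4.16% of all. Both percents were thus below those of all transcripts. The rule leaves out transcripts low in the first quantification but not those low in the second. The numbers lower and higher are therefore not on equal terms. The methods also divide by different lengths. The first took 99 bases off each transcript. The second took off a median of 341 in replicate 1, and less from the shortest transcript, of 271 bases. The part of this in the differences was not tested.

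**Figure D4:**
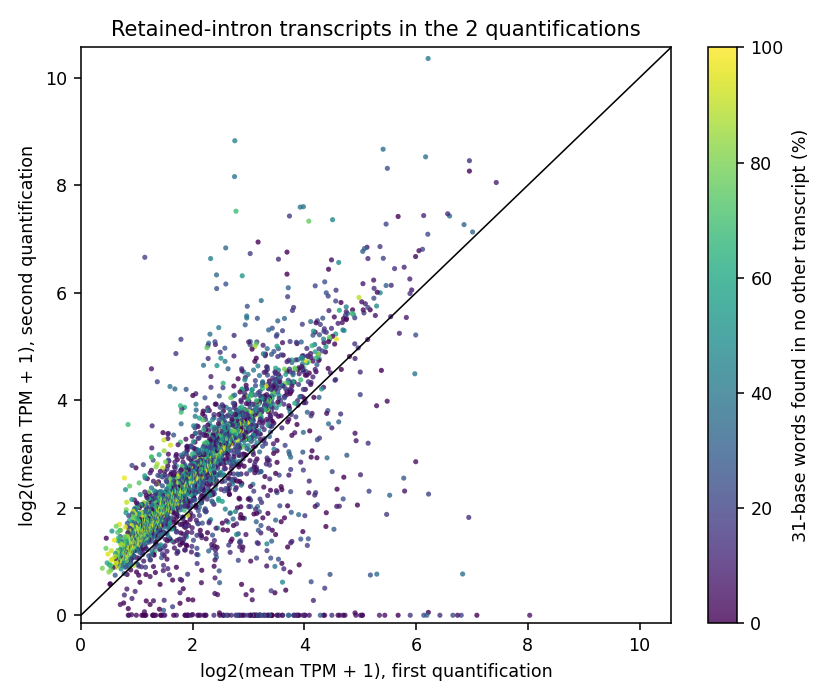
Mean TPM over the 2 libraries of 4084 retained-intron transcripts as log2(TPM + 1) in the first (x) and second (y) quantification, with the line of equal values and colour for the percent of 31-base words found in no other transcript. The 102 transcripts at 0 in the second lie along the bottom, and those with mostly unique words (yellow) form a narrow band above the line.

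Agreement rose with the amount of unique sequence. In 834 transcripts with under 10% unique words r between the quantifications was 0.469. It was 0.565 in 977 with 10 to 30%, 0.726 in 724 with 30 to 50%, 0.918 in 634 with 50 to 70% and 0.960 in 915 with 70% or more. The percent with a share at least 2-fold apart fell in the same order, from 30.3% through 17.7%, 9.94% and 4.26% to 1.53%. Transcripts at 0 in the second numbered 65, 28, 9, 0 and 0. The SD of the log2 ratio between the libraries went from 0.46 to 0.23 over these bins. The deposited posterior SD of the count, which the first quantification gives as its own uncertainty, was a median of 17.4% of the count in the lowest bin and 2.22% in the highest in replicate 1.

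**Figure D5:**
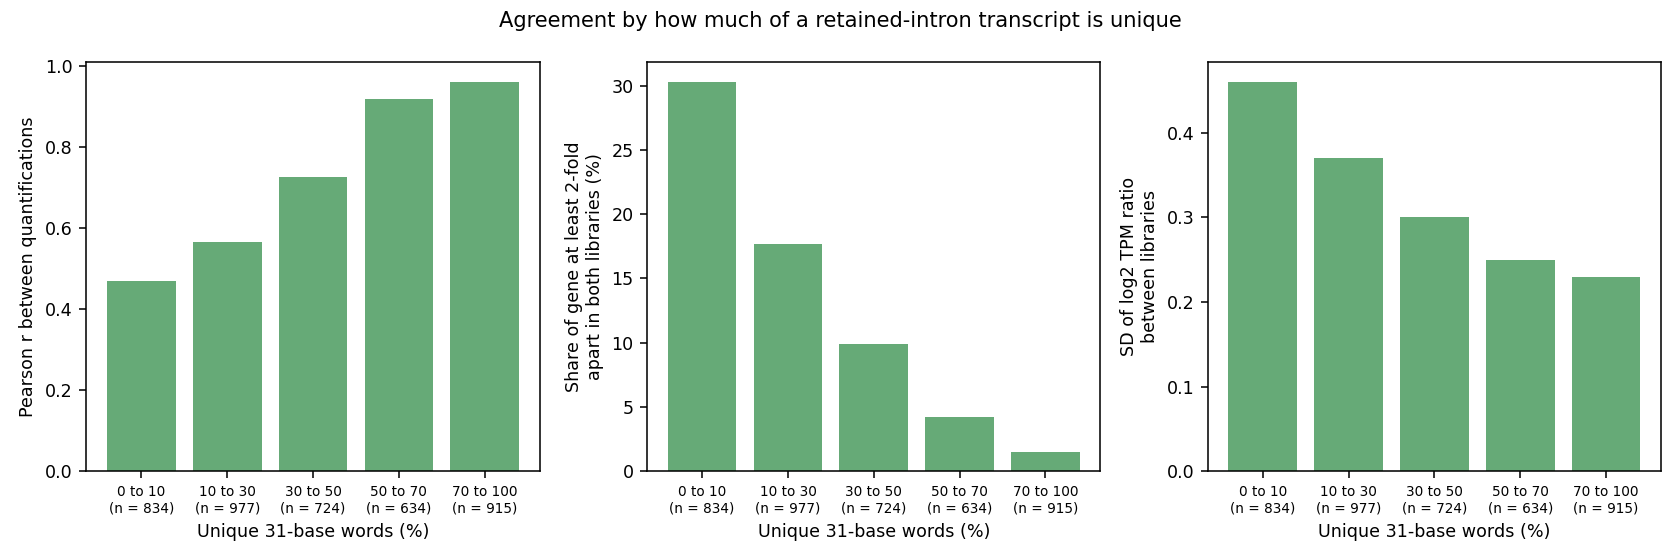
Retained-intron transcripts in 5 bins by the percent of their 31-base words found in no other annotated transcript (x, number of transcripts in brackets), with Pearson's r between quantifications (left), percent with a share of the gene at least 2-fold apart in both libraries (middle) and SD of the log2 TPM ratio between libraries (right). From the lowest to the highest bin r goes from 0.469 to 0.960, the percent apart from 30.3% to 1.53% and the SD from 0.46 to 0.23.

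Length moved with this. The lowest bin had a median length of 1986 bases and the highest 3377, and by length alone r was 0.186 in 247 transcripts under 600 bases and 0.962 in 282 of 5000 bases or more. Both were then divided at once, at 1000 bases and at 30% unique words. Short transcripts had r = 0.159 with few unique words (547) and 0.413 with more (297). Long ones had 0.728 with few (1264) and 0.937 with more (1976). Agreement was thus higher with more unique words within each length class, and higher with length within each uniqueness class. Median IsoPct went the other way, from 12.8% in the lowest bin of unique words to 4.29% in the highest. In the second quantification it went from 8.42% to 4.41%. These medians of the quantifications lay furthest apart in the lowest bin. They were close in the highest bin and in that of 50 to 70% (5.78% and 5.73%). Whole-intron transcripts had r = 0.798 and the others 0.568.

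Among transcripts above 0 in the second quantification, the largest differences in share went both ways. Higher in the second were Rpl37a-204, which keeps a 348-base intron, with 2.27% and 2.26% against 70% and 69.0%, and Ptms-203, of parathymosin, with 1.42% and 1.17% against 28.4% and 28.2%. Zwint-203, of a kinetochore-associated protein that also binds SNAP25, had 1.85% and 1.99% against 27.4% and 26.7%. Rps3-204 and Tubb5-204 had 0.65% and 0.81% against 8.11% and 9.48%, and 3.72% and 3.08% against 35.0% and 38.6%. Between 33.9% and 68.3% of the words of these 5 are unique. Lower in the second, besides Trf-209, Ywhae-204 and Rps16-202, were Ndufab1-208, of respiratory complex I, with 32.2% and 31.6% against 0.362% and 0.571%, and Rgs3-209, of a G protein regulator, with 10.1% and 23.4% against 0.615% and 0.0261%. Each of these gaps was seen in both libraries, and which quantification is nearer to the RNA was not tested.

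Reads of neighbouring genes could enter some values. Exons of another gene overlapped 258 of the 4084 transcripts on the same strand and 616 on the opposite one. The strand setting of the counting is not given in the sources used here. In 107 transcripts at least 50% of the words occur in another gene, and 265 have no word of their own. The median transcript had 36.2% unique words and 42.0% of its bases outside the exons of its gene's other types of transcript.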

How the data were processed

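Total RNA of 2 hippocampus libraries of 1 group was analysed, with 1 gene and 2 transcript quantifications each. Per the deposited text listings, the first came from reads aligned to the transcriptome and the second directly from reads, on mm10 with GENCODE M21, and per the file headers they have the column layouts of RSEM and kallisto. Programs and their settings: not given in the sources used here. The deposited expected count is the authors' estimate of reads per transcript. The deposited TPM is the authors' abundance per length, scaled to a fixed sum. The deposited IsoPct is the authors' percent of a gene's TPM in a transcript. For the second quantification this percent was recomputed from its TPM. Reads of both parental strains were assigned to the reference strain's transcripts, and the effect of this was not measured.

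Joining, counting and correlation on log2(TPM + 1) were done in Python 3.11.15 with pandas 2.3.3 and scipy 1.17.1, and figures with matplotlib 3.10.9. TMM factors came from edgeR 4.0.16 in R 4.3.3. Introns of at least 30 bases of transcripts of other types in the same gene counted as held when inside 1 exon. Words of 31 bases were counted over all annotated transcripts. The code was tested on simulated data. Depth sets the precision: the least counted transcript has 50 counts, and no interval is given since estimated counts are not sampled counts.

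Named were the 10 transcripts of highest mean TPM, the 10 of highest mean IsoPct in genes of at least 10 TPM, the 2 of highest TPM in each of 18 lists, the 5 largest ratios each way between libraries and, where the second value was above 0, between quantifications, and the 2 on each side of the count minimum. Further transcripts on the lists, whole-intron transcripts with at least 30% unique words and those with at least 70% were added after values were seen. Splice sites had been planned for the 10 highest. Since none holds a whole intron, borders are shown instead. A few transcripts this rule selects are left out of the text and not reported here. The transcripts and lists were chosen with earlier results of these data known. Alternatives covered the count minimum, the pseudocount, scaling, the quantification, unique sequence and leaving out each library.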

Additional observations from a re-analysis of the deposited data

How the results depend on the processing

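Of 61 alternatives over 8 summary values, 13 stayed within the spread set for them, 48 moved and 0 reversed a direction. For agreement between libraries no replicate spread exists, so any change in the third digit counted as moved. With a count minimum of 20, 8028 transcripts were selected, with medians of 1.80 TPM and 6.37%, r = 0.960 between libraries with 297 at least 2-fold apart, and r = 0.651 between quantifications with 1119 apart in share. With a minimum of 100 these were 1992, 3.71 TPM, 10%, 0.982 with 11, and 0.609 with 267. Requiring 50 counts in the second quantification as well gave 2.16 TPM, 7.22%, 0.978 with 30, and 0.910 with 176. Requiring 30% of the length outside exons of other types gave 2524 transcripts, 1.89 TPM, 5.72%, 0.979 with 11, and 0.820 with 154. Values of the second quantification for the same 4084 transcripts were 3.50 TPM, 6.54% and r = 0.941 between libraries with 165 apart. A pseudocount of 0.1 gave 0.972 between libraries and 0.524 between quantifications. The following were added after seeing the data. With at least 30% unique words, r was 0.981 with 3 apart between libraries and 0.841 with 113 between quantifications. With at least 70% it was 0.980 with 1, and 0.960 with 14. Whole-intron transcripts had a median of 2.12 TPM, 0.971 with 25, and 0.798 with 156. Settings that keep fewer transcripts lower a count by construction. A count minimum also selects on the level that the medians describe. A minimum in the second quantification selects on a value that r between quantifications compares. For the other changes the cause was not tested. Leaving out each library in turn gave 4478 to 4923 transcripts, 2.35 to 2.45 TPM, 7.44% to 7.70%, r of 0.627 to 0.630 between quantifications and 633 to 662 apart. No paired analysis was possible because there is 1 group.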
